A study of Rattus norvegicus with 8 samples.

Results

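The immediate early transcription factor genes considered were Fos, Fosb, Fosl1, Fosl2, Jun, Junb, Jund, Egr1, Atf3 and Myc, and their probes were chosen by the RefSeq transcript that each probe of the array is assigned to. Of these 10 genes, 7 had a probe, out of 13903 named genes on the array: Fos (NM_022197), Fosl1 (NM_012953), Jun (NM_021835), Junb (NM_021836), Egr1 (NM_012551), Atf3 (NM_012912) and Myc (NM_012603), each on 1 spot per array. Fosb, Fosl2 and Jund were matched to no probe and were not analysed here. RNA was measured on 8 single-colour rat lncRNA arrays, which also carry mRNA probes, all from male F344 rats at week 95 of a lung cancer model induced by NNK, a nitrosamine of tobacco smoke. The groups were 3 normal lung tissues from NNK-treated rats, 3 lung tumors described as matched to them (adenocarcinomas, by the study's methods), 1 blood clot from a rat of the control group and 1 blood clot from a rat of the NNK group. All 6 lung arrays came from NNK-treated animals, so normal lung here was treated lung beside a tumor and no lung of an untreated rat was compared. The description label of the NNK clot repeats that of the third tumor, while its title, source and tissue labels all name a clot, and it was used as a clot.

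Immediate early genes are transcribed within minutes of a growth or stress signal, without new protein synthesis, and their mRNAs are short-lived. Fos and Jun family proteins pair through a leucine zipper into AP-1, which binds the TPA response element, while Egr1 is a zinc finger factor induced through serum response factor and its partners. Atf3 is a stress-induced factor of the same leucine zipper class, and Myc pairs with Max to bind E-boxes and drives genes of cell growth. These genes are also induced by handling of tissue, such as excision and dissociation.

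Promoter sequence was available from the RefSeq table (assembly GRCr8) for 6 of the 10 genes, Fosb, Fosl1, Fosl2, Junb, Jund and Egr1. The 250 bases before the start are shown for the 3 of them with a probe, because the signals of Junb and Fosl1 moved in opposite directions in the tumors while that of Egr1, which holds the classical serum response elements, did not pass the threshold. Capitals mark matches, on both strands, to the CArG box that serum response factor binds and to TGACG, the core of the cAMP response element.
Egr1 (chr18:26736828-26737077, plus strand): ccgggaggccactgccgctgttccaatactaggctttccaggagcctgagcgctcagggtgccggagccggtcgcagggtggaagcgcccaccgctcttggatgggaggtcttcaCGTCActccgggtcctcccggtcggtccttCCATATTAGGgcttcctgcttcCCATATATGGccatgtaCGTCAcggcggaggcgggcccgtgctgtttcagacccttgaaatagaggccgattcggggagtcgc
Junb (chr19:40080876-40081125, plus strand): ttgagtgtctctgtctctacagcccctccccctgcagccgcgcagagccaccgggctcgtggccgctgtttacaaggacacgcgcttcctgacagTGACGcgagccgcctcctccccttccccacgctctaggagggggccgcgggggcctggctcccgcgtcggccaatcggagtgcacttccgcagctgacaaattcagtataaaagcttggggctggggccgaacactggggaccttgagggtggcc
Fosl1 (chr1:212183635-212183884, plus strand): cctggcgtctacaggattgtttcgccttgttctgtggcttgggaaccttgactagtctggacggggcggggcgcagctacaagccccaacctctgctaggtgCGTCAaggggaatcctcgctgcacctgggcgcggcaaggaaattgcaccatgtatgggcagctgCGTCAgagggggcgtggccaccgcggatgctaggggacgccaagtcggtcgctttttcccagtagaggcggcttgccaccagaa
The Egr1 window held CArG boxes at positions -105 to -96 and -83 to -74 and the core at -135 to -131 and -66 to -62, counted from the start. Junb held the core at -155 to -151, and Fosl1 at -148 to -144 and -84 to -80. Over all 27457 promoter windows of this length, 1.50% held a CArG box and 19.0% the core. None of the 3 windows held the full cAMP response element TGACGTCA, the TPA response element TGANTCA, the E-box CACGTG or the EGR site GCGNGGGCG, which 1.70%, 6.36%, 5.80% and 4.53% of all windows held. Of 25 windows of other immediate early genes 3 held a CArG box (Egr2, Klf6 and Zfp36) and 14 the core. A match of letters is a description of the sequence and shows no binding.

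In the lung tumors, Fos, Jun and Junb were lower than in normal lung, Fosl1 and Myc were higher, and Egr1 and Atf3 did not reach a fold change of 2. Values are log2 processed signals, quantile-normalized over the 6 lung arrays, and a gene was called where its fold change was at least 2 and its adjusted p from limma, with the Benjamini-Hochberg method over all probes tested, was at most 0.05. All 7 genes passed the detection filter, which asked for a signal well above background on 3 or more of the lung arrays. With spots that the scanner software marked as outliers left out, 6 of the 7 could be tested, of which 3 were called lower and 1 higher. Among all 12471 probes tested, 15.5% were called lower and 13.5% higher, and 29.0% in either direction.

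**Figure D1:**
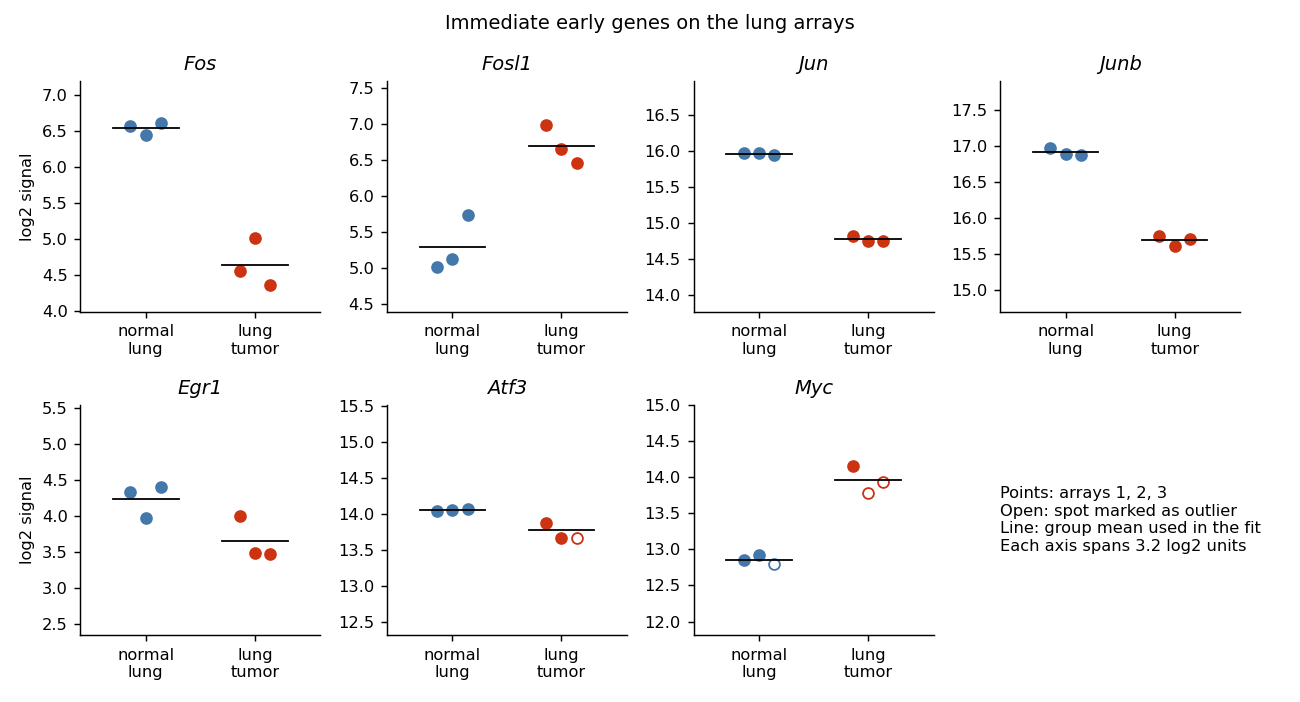
Log2 processed signal (y axis, quantile-normalized over the 6 lung arrays) of the 7 member genes on the 3 normal lung and 3 lung tumor arrays. Each point is 1 array, open points are spots marked as outliers, and the line is the mean that entered the fit; every panel spans the same log2 range. The groups are apart for Fos, Jun and Junb (lower in tumor) and for Fosl1 and Myc (higher), and they overlap for Egr1.

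Fos encodes the founding partner of AP-1. Its log2 signal was 6.57, 6.44 and 6.60 on the normal lung arrays 1 to 3 and 4.55, 5.01 and 4.36 on the tumor arrays 1 to 3. Every normal array was above every tumor array, by a log2 fold change of -1.90 (SE 0.18, n = 3 and 3), a 3.72-fold lower level in tumor with an adjusted p of 3.87e-04 by limma. The probe was dim, at 83.3 to 86.2 intensity units in normal lung and 21.0 to 37.1 in tumor before normalization, and with the normexp background correction its log2 fold change was -0.83, under the fold limit.

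Jun, the main partner of Fos in AP-1, was read by a bright probe. Its log2 signal was 15.96, 15.97 and 15.95 in normal lung and 14.82, 14.75 and 14.75 in tumor. The arrays of a group lay close together and the groups did not overlap, with a log2 fold change of -1.19 (SE 0.050, n = 3 and 3), 2.27-fold lower in tumor, and an adjusted p of 2.14e-05 by limma.

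Junb, a Jun family member with weaker transcriptional activity of its own, changed by about as much as Jun. Its log2 signal was 16.97, 16.88 and 16.87 in normal lung and 15.74, 15.61 and 15.70 in tumor. All tumor arrays lay below all normal arrays, with a log2 fold change of -1.22 (SE 0.062, n = 3 and 3), 2.33-fold lower in tumor, and an adjusted p of 3.86e-05 by limma. No member spot was marked as saturated on any array.

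Fosl1 encodes Fra-1, a Fos family protein without the transactivation domain of Fos. Its log2 signal was 5.02, 5.12 and 5.74 in normal lung and 6.98, 6.65 and 6.46 in tumor. The third normal array was above the other two, and all 3 tumor arrays were above it. The log2 fold change was 1.40 (SE 0.24, n = 3 and 3), 2.64-fold higher in tumor, with an adjusted p of 0.00395 by limma. This call did not hold with normexp, where the log2 fold change was 0.69, nor with the methods' paired t-test, where the adjusted p was 0.108.

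Myc, the factor of growth and ribosome synthesis genes, could be tested when spots marked as outliers were kept, since those of the third normal array and of tumor arrays 2 and 3 were marked. Its log2 signal was 12.86, 12.93 and 12.79 in normal lung and 14.15, 13.79 and 13.93 in tumor. The groups did not overlap, also among the unmarked spots, which were those of normal arrays 1 and 2 and of tumor array 1. With the marked spots the log2 fold change was 1.10 (SE 0.11, n = 3 and 3), 2.14-fold higher in tumor, and the adjusted p by limma was 3.88e-04, in a fit that called 27.9% of 15803 probes in either direction and found 66.1% past the adjusted p alone. With arrays scaled to their 75th percentile the log2 fold change was 0.91, just under the fold limit.

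Egr1 was close to the background. Its log2 signal was 4.33, 3.97 and 4.40 in normal lung, where the second array was not well above background, and 4.00, 3.49 and 3.47 in tumor. Tumor array 1 was above normal array 2, so the groups overlapped. The log2 fold change was -0.58 (SE 0.19, n = 3 and 3), 1.49-fold lower in tumor, with an adjusted p of 0.0443 by limma, and the fold limit was not reached. On the arrays scanned together, which were all normal arrays and tumor array 1, the log2 difference was -0.23 (adjusted p = 0.349 by limma with the scan as a block).

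Atf3 had a log2 signal of 14.03, 14.05 and 14.07 in normal lung and 13.88 and 13.67 on tumor arrays 1 and 2. The spot of tumor array 3 was marked as an outlier at 13.66 and was left out of the fit. The tumor arrays were lower without overlap, by a log2 fold change of -0.28 (SE 0.087, n = 3 and 2), 1.21-fold, with an adjusted p of 0.0440 by limma. At an adjusted p of at most 0.05 with no fold limit, all 6 of the members tested passed, and so did 65.1% of all probes tested. The groups did not overlap for 5 of the 6, against 72.9% of all probes.

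The array pairs set how far these p-values reach. Between the normal arrays, the mean squared log2 difference of probes printed on 3 spots was 0.467 to 0.787 of what the scatter among a probe's own spots on an array gives, and between tumor arrays 2 and 3 it was 0.466, so these arrays differed by less than the spot noise. Tumor array 1 differed from the other tumor arrays by 3.03 and 3.36 times that noise, and normal from tumor arrays by 8.35 to 12.8 times. The study calls its 3 tumor samples independent, but the labels do not name the animals. The p-values therefore measure the spread between these arrays, which may be technical. Counting the normal arrays as 1 sample and tumor arrays 2 and 3 as 1 sample leaves 1 normal against 2 tumor samples, with the spread taken from the tumors alone and the lone normal sample assumed to vary like them. In that fit Fos passed the threshold (log2 fold change -1.92, adjusted p = 0.0376 by limma). The log2 fold changes were -1.17 for Jun, -1.21 for Junb, 1.47 for Fosl1 and 1.15 for Myc, and these genes missed the threshold at adjusted p-values of 0.0576, 0.0566, 0.0710 and 0.0729 by limma.

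**Figure D2:**
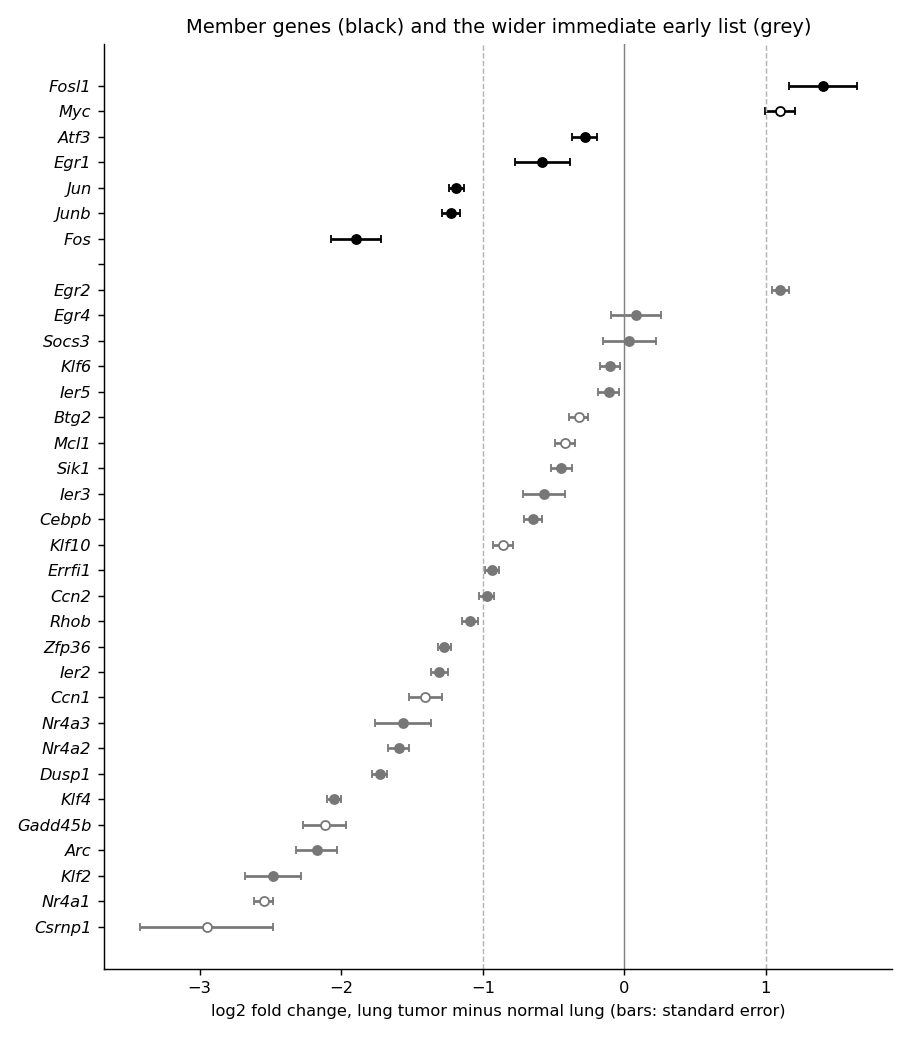
Log2 fold change of lung tumor against normal lung (x axis) with its standard error for each member gene (black) and each gene of the wider immediate early list (grey). Open points come from the fit with marked spots kept, and the dashed lines mark a fold change of 2. Fosl1 and Myc lie to the right and Fos, Jun and Junb beyond the left line, while the list ranges from -2.95 for Csrnp1 to 1.10 for Egr2.

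Of the other immediate early genes, more were called lower than higher in the tumors. Of a list of 34 such genes, 31 had a probe, 26 passed the filter and 19 were tested, of which 9 were called lower, 1 higher and 9 not called. Of all probes tested, 15.5% were called lower and 13.5% higher. The median log2 fold change of the 19 was -0.97, against 0.07 over all 12471 probes tested. Klf2, a factor of quiescent endothelium, was lower by a log2 fold change of -2.48 (SE 0.20), Klf4 by -2.05 (SE 0.05) and Dusp1, a phosphatase that switches off MAP kinases, by -1.73 (SE 0.05). Arc, best known as a neuronal activity gene, was not well above background on any tumor array and was at least 3.94-fold lower there. The others called lower were Nr4a2, Nr4a3, Ier2, Zfp36 and Rhob, with log2 fold changes from -1.59 to -1.09. Egr2, a relative of Egr1, was the gene called higher, at 1.10 (SE 0.06). The count of 1 higher became 0 with arrays scaled to their 75th percentile and with the methods' paired t-test. With marked spots kept, 7 more genes of the list could be tested, and 4 were called lower: Csrnp1 at -2.95, Nr4a1 at -2.55, Gadd45b at -2.12 and Ccn1 at -1.41. That fit called 27.9% of all probes in either direction. With the near-identical arrays counted once, 5 of the 19 were called lower.

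Cell type markers moved with this comparison, in which 15.5% of all probes tested were called lower and 13.5% higher. Of the endothelial markers, 3 of 3 tested were called lower in tumor (Tek, Cldn5 and Emcn), and the summed signal of the list was 232613 to 242061 in normal lung and 47675 to 48358 in tumor. Of the type 1 alveolar markers 3 of 5 were lower, with sums of 1107333 to 1130415 and of 387846 to 404572. Red blood cell markers were lower for 3 of 4. Platelet markers were lower for 3 of 3, of which Ppbp and Gp9 were well above background on none of the tumor arrays, but Pf4, tested with marked spots kept, had a log2 fold change of 0.98 and the summed signal of the list was 4927 to 5266 in normal lung and 7746 to 9075 in tumor. Neutrophil markers were lower for 1 of 3, and with marked spots kept also S100a8 at -2.12 and Csf3r at -2.40, with sums of 14231 to 15036 in normal lung and 3553 to 4359 in tumor. T cell markers were lower for 1 of 6, near the share of all probes, and proliferation markers were higher for 2 of 4 (Cdk1 and Plk1). One airway marker of 3 tested (Cyp2f4) was higher. The B cell marker Cd79b, 1 of 2 tested, passed the threshold but was detected on no normal array, and its bound of at least 1.59-fold lies under the fold limit. None of the 7 type 2 alveolar, 4 macrophage or 2 smooth muscle and fibroblast markers tested was called. With marked spots kept, the type 2 marker Sftpc was called higher at 1.14 and the proliferation marker Aurkb at 1.19. In that fit the endothelial marker Pecam1 was called lower at -1.88, the type 1 marker Pdpn at -2.38 and the red blood cell marker Hba-a2 at -3.12. The summed signal of the type 2 alveolar list was 1042915 to 1083342 in normal lung and 1214790 to 1242943 in tumor. The tumor arrays also had more bright spots marked as outliers, 15.9% to 25.3% against 4.92% to 8.62% on the normal arrays. The part of cell makeup and of array quality in the changes of the member genes was not tested, and in bulk tissue fewer cells of a type and less RNA per cell cannot be told apart.

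For the partners of the member factors and their upstream genes, the shares called were close to those of all probes, 13.5% higher and 15.5% lower. Among 15 tested partners and related leucine zipper factors, 2 were called higher, Maf at a log2 fold change of 1.50 (SE 0.07) and Atf6, a sensor of endoplasmic reticulum stress, at 1.24 (SE 0.14). In the same list 2 were called lower, Nrl at -2.62 (SE 0.70) and Mafk, a small Maf protein, at -1.10 (SE 0.11), and the list median was -0.20. The count of 2 lower became 0 without tumor array 2, with the scan block and with the methods' paired t-test, and 1 without normal array 2 or tumor array 3. Of 7 tested upstream kinases and serum response factor partners, Map2k4, a kinase of the JNK and p38 pathways, was higher at 1.13 (SE 0.09) and Mapk9, which encodes JNK2, was lower at -1.04 (SE 0.10), with a list median of 0.31. The count of 1 higher became 0 with all 8 arrays quantile-normalized together and with normexp. The count of 1 lower became 0 without normal array 3 or tumor array 2 and 2 without tumor array 1. Of 5 tested members of the Myc network none was called by limma, and those of the largest size were Mxd3 at 0.76 (SE 0.07), Mxd1 at -0.73 (SE 0.07) and Mlx at 0.70 (SE 0.06). Mycn, a close relative of Myc, was called higher at 3.35 (SE 0.34) with marked spots kept.

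Of 12 classical AP-1 target genes tested, 4 were called higher, against 13.5% of all probes, and 2 lower, near the share of 15.5%, with a list median of 0.00. The count of 4 higher became 3 without tumor array 2, with the scan block and with the methods' paired t-test. Ccnd1, encoding cyclin D1, was higher at a log2 fold change of 2.51 (SE 0.13), and so were Spp1, encoding osteopontin, at 2.31 (SE 0.57) and the stress enzyme Hmox1 at 1.17 (SE 0.06). Mmp9, a matrix metalloproteinase, was lower at -3.23 (SE 0.17) and Vegfa, on the brightest of its 5 probes, at -1.36 (SE 0.05). Of the 12 Myc targets tested, Apex1, a base excision repair enzyme, was higher at 1.39 (SE 0.05). Ccnd2, encoding cyclin D2, was called higher but was not well above background in normal lung and was at least 1.10-fold higher. Odc1, the first enzyme of polyamine synthesis, was called lower at -2.16 (SE 0.69), was detected on 1 tumor array and lost the call without normal array 1 or 2 or without tumor array 2 or 3. The other 9 were not called, so that 2 of 12 were called higher and 1 lower. The list median was 0.63, against 0.07 over all probes. With marked spots kept, Npm1, encoding nucleophosmin, at 2.90 (SE 0.11) and the helicase gene Ddx18 at 2.03 (SE 0.07) were also called higher.

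**Figure D3:**
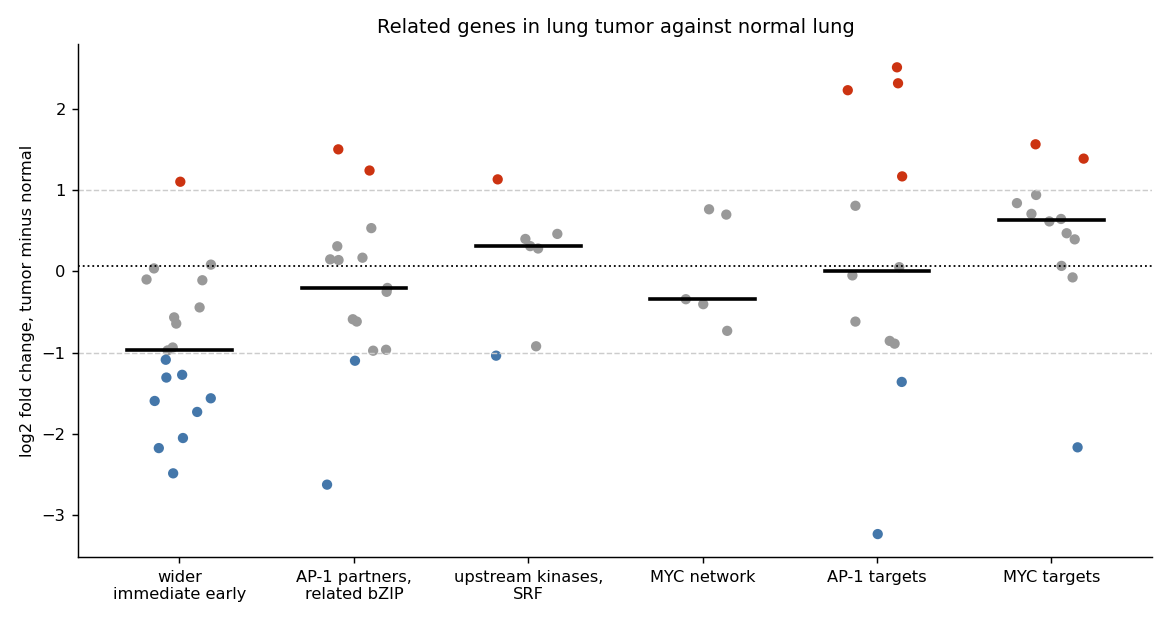
Log2 fold change of lung tumor against normal lung (y axis) for each tested gene of the 6 related lists (x axis), with genes called higher in red, lower in blue and others in grey. Black bars are list medians, the dotted line is the median of all probes tested and the dashed lines mark a fold change of 2. The wider immediate early list lies lowest, with a median of -0.97, and the Myc targets highest, with 0.63.

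Among the profiles most like that of Fos over the 6 lung arrays, by Euclidean distance between centred log2 values over 9754 named mRNA probes, were those of Lsamp (0.247), Septin5 (0.256), Nxf7 (0.300) and Plk2 (0.359). Their log2 fold changes in tumor ran from -2.02 to -1.82. The profiles nearest to Egr1 were those of Zbtb38 (0.115), Gypc (0.148), Plec on 2 probes (0.200 and 0.217) and Mcpt1 (0.209), with log2 fold changes from -0.67 to -0.47.

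Between the blood clots, Junb and Myc were higher in the NNK clot, while Fos, Jun and Atf3 differed little. Each clot group was 1 array, so there was no test, and the error given is that of the spots alone. Clot values were normalized over the 2 clot arrays. Of the 5 member genes well above background on both, 2 were at least 2-fold higher in the NNK clot and none lower, while of all 11615 such probes 18.1% were higher and 14.9% lower by as much, 33.0% in all. The median log2 difference over these probes was -0.12, and -0.31 when arrays were scaled to their 75th percentile.

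Junb had a log2 signal of 11.29 in the control clot and 14.39 in the NNK clot, a log2 difference of 3.10 (spot error 0.20) or 8.59-fold. Under the alternatives tried it ran from 1.99 to 3.10. Myc was at 4.42 in the control clot, close to background, and at 6.23 in the NNK clot, a difference of 1.82 (spot error 0.34) or 3.52-fold. Its size depended on the processing, from 0.59 with normexp, under the fold limit, to 3.23 in the authors' normalized values.

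The other AP-1 genes stayed near their control level. Fos had a log2 signal of 6.07 in the control clot and 6.08 in the NNK clot, and the difference of 0.01 was within the spot error of 0.24. Jun was at 6.69 and 6.83, a difference of 0.14 within its spot error of 0.22. Atf3 was at 8.57 and 8.31, a difference of -0.26 (spot error 0.21). Fosl1 and Egr1 were not well above background in either clot, and no fold is given.

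**Figure D4:**
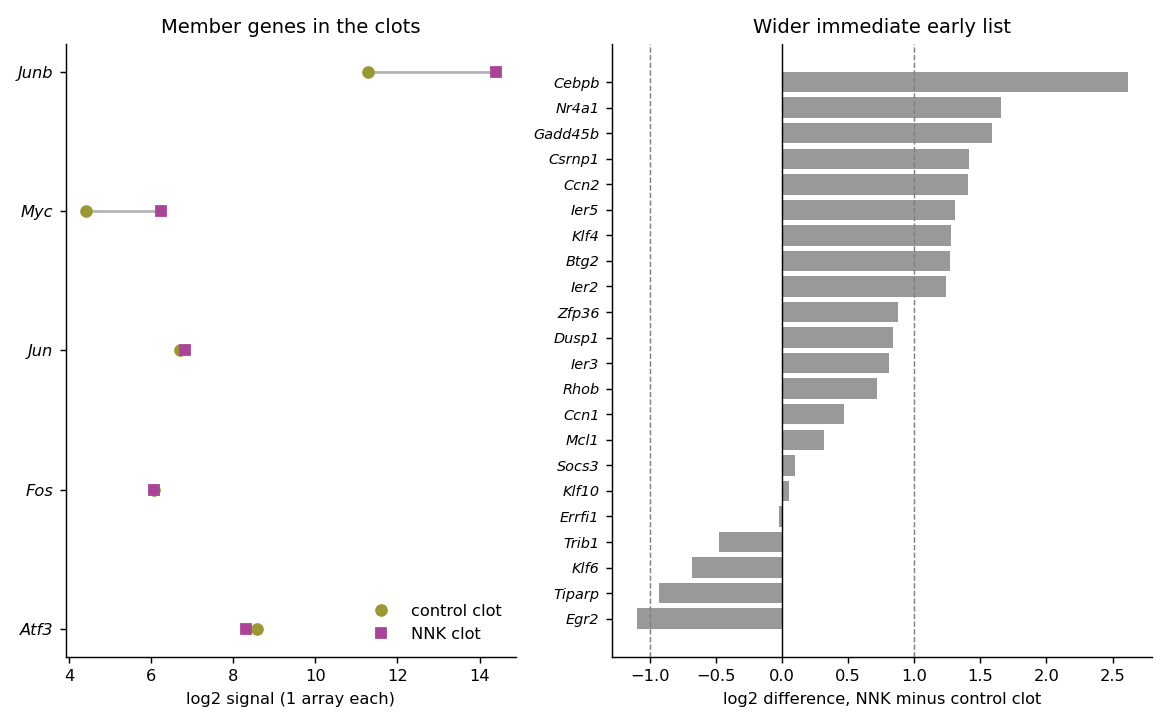
Left, log2 signal (x axis, normalized over the 2 clot arrays) of the 5 member genes detected in both clots, 1 array each. Right, log2 difference of the NNK minus the control clot (x axis) for the genes of the wider immediate early list detected in both, with dashed lines at a 2-fold difference. Junb and Myc are the members whose clots lie apart, and 9 of the 22 list genes lie beyond the right line, against 18.1% of all probes.

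Of the wider immediate early list, 9 of 22 genes were at least 2-fold higher in the NNK clot and 1, Egr2 at -1.10, was lower, with a list median of 0.83. The counts of this and the following lists stand against 18.1% of all probes higher and 14.9% lower, with a median of -0.12. Cebpb, a leucine zipper factor of myeloid cells, differed by 2.62, Nr4a1, an orphan nuclear receptor, by 1.66 and Gadd45b by 1.59. Of the Myc targets, 11 of 15 were at least 2-fold higher and none lower, with Fbl and Nolc1, both of the nucleolus, at 3.08 and 2.92, Ncl, encoding nucleolin, at 1.97 and a list median of 1.57. Of the upstream genes 4 of 10 were higher, with Srf, encoding serum response factor, at 2.09, Elk4, its partner, at 1.45 and Map2k4 at 1.25. In the Myc network 3 of 6 were higher (Mxd3 1.32, Mnt 1.15 and Mlx 1.01), and of the AP-1 targets 3 of 8, among them Hmox1 at 1.68 and Mmp9 at 1.38. Partners and related factors had none higher and 3 of 13 lower, Crem at -1.48, Maf at -1.37 and Creb1 at -1.10. For Crem and Creb1, with 2 probes each, the probe brighter in lung was used.

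Blood cell markers differed between the clots too, where 18.1% of all probes were at least 2-fold higher in the NNK clot and 14.9% lower. Of the neutrophil markers 3 of 5 were at least 2-fold higher in the NNK clot, and their summed signal was 15150 in the control and 71352 in the NNK clot. Of the T cell markers 4 of 6 were at least 2-fold higher, but Cd2 and Cd3d differed by -0.54 and -0.26. The summed T cell signal was 18695 in the control and 19079 in the NNK clot. Of the platelet markers 3 of 4 were at least 2-fold lower, while no red blood cell marker differed by as much. The part of blood cell makeup in the Junb and Myc differences was not tested.

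Across lung and blood, Jun and Myc were far higher in lung, Fos was higher in the clots once arrays were scaled, and Junb came close to the lung level in the NNK clot. For this description all 8 arrays were quantile-normalized together. The clot arrays were dimmer, with a 75th percentile of 95.4 and 206 intensity units against 1191 to 1329 on the lung arrays, and 5 of 8 type 2 and 4 of 7 type 1 alveolar markers were well above background in the control clot, and 7 and 3 in the NNK clot, although Sftpc and Aqp5 were so in neither. Jun was at 15.33 to 15.36 in normal lung, 13.87 to 13.96 in tumor, 8.99 in the NNK clot and 8.75 in the control clot. Normal lung was therefore 96.5-fold above the control and 81.7-fold above the NNK clot, log2 differences of 6.59 and 6.35 that were 5.95 and 5.83 in the authors' values. Myc ran from 12.80 to 13.20 in tumor, 11.79 to 11.93 in normal lung, 7.90 in the NNK and 4.91 in the control clot, so that normal lung was 123-fold above the control and 15.5-fold above the NNK clot. These log2 differences of 6.94 and 3.96 were 5.52 and 3.48 with arrays scaled to their 75th percentile, and 6.59 and 3.36 in the authors' values.

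Junb was at 16.41 to 16.56 in normal lung, 15.96 in the NNK clot, 14.91 to 15.07 in tumor and 13.91 in the control clot. Its normal lung level was 5.89-fold above the control clot, a log2 difference of 2.56 that was 1.97 with arrays scaled to their 75th percentile, and 1.42-fold above the NNK clot, and the latter order turned under that scaling, with a log2 difference of -0.20. Atf3 was at 13.07 to 13.11 in normal lung, 12.67 to 12.90 in tumor, 11.57 in the control clot and 11.26 in the NNK clot, 2.87- and 3.54-fold below normal lung. These log2 differences of 1.52 and 1.82 were 2.32 and 2.77 with arrays scaled to their 75th percentile. In the authors' values they were 1.23 and 1.55.

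Fos was at 7.61 in the NNK and 7.59 in the control clot, which did not differ beyond the spot error, at 6.14 to 6.28 in normal lung and at 4.24 to 4.85 in tumor. The log2 difference of normal lung from the control clot was -1.37, and it was -2.75 with arrays scaled to their 75th percentile and -2.14 in the authors' normalized values. Before normalization the Fos probe read 43.6 intensity units in the control clot and 104 in the NNK clot, against 83.3 to 86.2 in normal lung. The order of normal lung and the control clot thus rested on the scaling. Fosl1 ran from 6.15 to 6.62 in tumor and from 4.86 to 5.51 in normal lung, and Egr1 from 3.87 to 4.28 in normal lung and from 3.40 to 3.90 in tumor, where the groups overlapped. Both were not well above background in the clots, which gave no bound that held under every scaling.

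**Figure D5:**
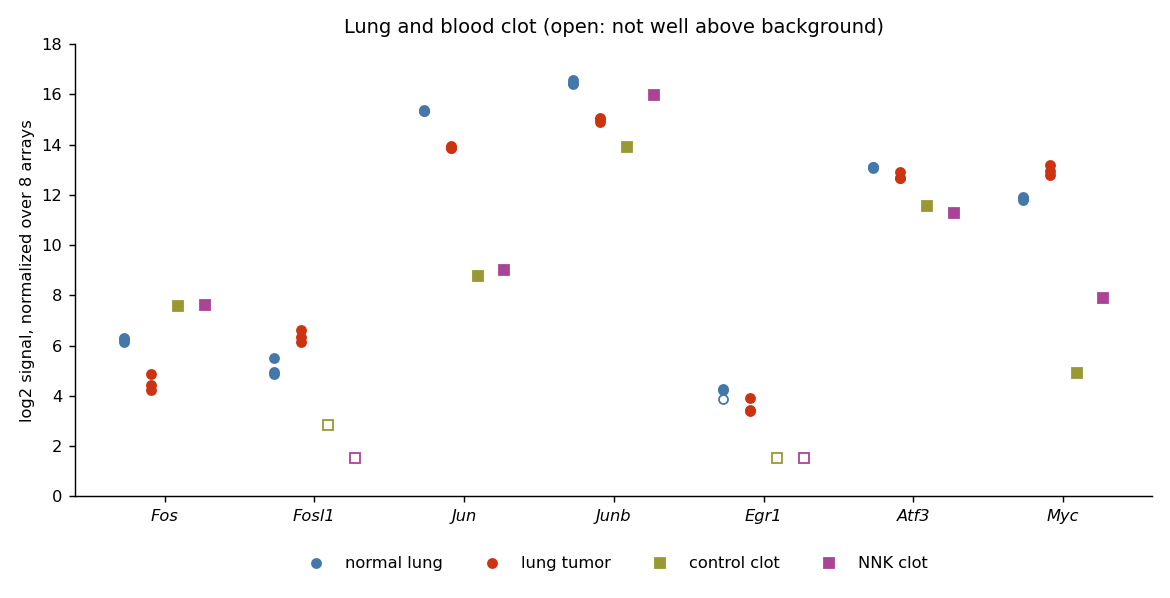
Log2 signal (y axis, quantile-normalized over all 8 arrays) of each member gene in normal lung, lung tumor and the control and NNK blood clots. Each point is 1 array and open points were not well above background; levels are to be compared within a gene, not between genes. Jun and Myc lie far lower in the clots than in lung, and Fos lies higher.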

How the data were processed

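Total RNA was labelled with Cy3 and hybridized to Arraystar rat lncRNA arrays. The authors extracted spot intensity values with Agilent Feature Extraction 10.5.1.1, and the deposited files hold the processed intensity (background-subtracted, per the file headers) with outlier, saturation and background marks. A deposited table holds the authors' quantile-normalized log2 values of the same arrays. Its columns correlated at 0.984 to 0.998 with the scanner values over 24662 probes, with medians of 5.60 to 5.61, and it was used as an alternative.

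Control spots and spots marked as outliers were left out, spots of a probe were averaged, and log2 intensities were quantile-normalized (limma 3.58.1, R 4.3.3) over the lung arrays, the clots or all arrays. A probe counted as well above background where over 50% of its spots were, was kept if so on at least 3 lung arrays, and was tested where each group had at least 2 values. Lung tumor was tested against normal lung with lmFit and eBayes with group as the only term, and the calculation was tested on simulated data. A gene with several probes was represented by the brightest in lung. For a probe that a whole group failed to detect, the fold is a bound that uses the lowest detected signal of each array. Normexp used the median spot and background signals. The number of arrays limits the precision.

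Named genes were all members, up to 4 called genes of each list with the largest change in lung, up to 3 of each list with the largest clot difference, and the 5 nearest profiles of Fos and Egr1; other list genes were named after their values were seen, and some genes that this rule selects are not reported here. The member genes and gene lists were chosen with earlier results of these data known. The study describes the tumors as matched to the normal tissues, while the sample titles give only a number to each tissue and name no animals. The correlations of same-numbered deviations over 11359 probes were 0.14, -0.04 and 0.16. Those of differently numbered arrays ran from -0.19 to 0.14, so the same-numbered arrays were not clearly set apart. The replicate number was used as a block in an alternative. Arrays with the same scan time in the file headers, which were the normal arrays with tumor array 1, and tumor arrays 2 and 3, formed the scan block. Other alternatives were the scaling, background correction, dim-probe filter, marked spots, test, threshold, near-identical arrays counted once and leaving out each array.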

Additional observations from a re-analysis of the deposited data

How the results depend on the processing

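No called change of a member gene turned its direction under the alternatives run; the order of Junb between normal lung and the NNK clot did, with a log2 difference of -0.20 under the 75th percentile scaling. Counted once, near-identical arrays left 0 members called higher and 1 lower, and 4 and 8 genes of the 6 related lists, against 10 and 15. With the adjusted p and no fold limit, 5 members were lower, and 26 list genes were higher and 31 lower. Members called higher were 0 with normexp and with the methods' paired t-test, and 2 with marked spots kept. With normexp, 1 member was at least 2-fold higher in the NNK clot. Without each lung array in turn, 1 member was higher and 3 were lower throughout, and the related lists gave 9 to 10 higher and 12 to 17 lower.

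With the replicate block, no call of a member changed: the adjusted p was 0.00525 for Fos, 0.0240 for Fosl1, 0.00141 for Jun, 0.00138 for Junb and 0.00431 for Myc, and 1 member was called higher and 3 lower. With the scan block, the difference was that of tumor array 1 alone from the normal arrays, since tumor arrays 2 and 3 were scanned apart. The spread came from arrays that differed by less than the spot noise. In this fit the log2 fold changes were -1.98 for Fos, 1.69 for Fosl1, -1.14 for Jun, -1.16 for Junb and 1.29 for Myc. Over all probes, 1683 were called higher and 1929 lower. These counts were 967 and 1256 with normexp, 762 and 957 with near-identical arrays counted once, and 4205 and 3918 with no fold limit, and the paired t-test called 1090 higher. The cause of each of these changes was not tested. Precision is limited by the number of arrays, and for Fos, Fosl1, Egr1 and the clot level of Myc by signals near background.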
